A study of Bos taurus with 23 samples.

Results

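Cytokines, chemokines and their receptors were read as 89 genes among the 9155 genes that the bovine array names by a single symbol. They were taken by symbol alone: interleukins and interleukin receptors, the CXCL and CCL chemokines, the CXCR and CCR receptors, the TNF ligand and receptor families, the colony-stimulating factors and their receptors, LIF, and GRO1. A gene was read from the probe set with the highest mean over all arrays. The 89 genes comprised 26 chemokines, 8 chemokine receptors, 20 interleukins (LIF included), 19 interleukin receptors, 1 receptor antagonist, 3 colony-stimulating factors, 2 colony-stimulating factor receptors, 3 ligands of the TNF family and 7 TNF receptors.

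The study profiled cattle oocytes and embryos from before fertilisation to the blastocyst on 23 GeneChip arrays in 8 groups. There were 3 arrays of oocytes cultured in vitro, whose culture conditions and pool size are not given in the sources used here, and 3 arrays of oocytes matured in vivo, aspirated from preovulatory follicles of 9 animals on the day of estrus. The embryos all came from cows inseminated with thawed semen of 1 Holstein-Friesian bull: zygotes (3 arrays), 2-cell (2), 4-cell (2) and 8-cell embryos (4) were flushed from the oviducts of 24 cows 1 to 4 days after insemination, while uterine flushing of 7 animals on day 7 or 8 gave the pools for 3 morula and 3 blastocyst arrays. The 8-cell group is described in the study's design as 8- to 16-cell stages. Embryos were pooled by 10, and blastocysts by 5, before poly(A) RNA was amplified and hybridised, and the titles number the arrays as biological replicates without saying which animals gave which pool.

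Cytokines are small secreted proteins that carry signals between cells, and chemokines are those that direct cell movement through receptors coupled to G proteins. Interleukin and colony-stimulating factor receptors mostly signal through JAK kinases and STAT transcription factors, whereas the receptors for interleukin 1, interleukin 18 and the TNF family act through adaptor proteins and NF-kappa-B. The oviduct, the uterus and leukocytes make many of the same factors around the embryo.

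Values are the authors' normalised log2 intensities, on which 1 unit is a doubling. A log2 value of 4 was taken as the background level, since array medians lay between 3.28 and 3.60 and 43.3% to 47.0% of probe sets exceeded 4. The labelled material was checked against markers. All 8 oocyte markers on the list read above 4 on every array from the oocyte to the 8-cell stage. In morulae 1 to 3 did, and in blastocysts 1. All 7 trophectoderm markers read above 4 in every blastocyst pool, but also in morula pool 1. In morula pools 2 and 3 the counts were 4 and 5, so these markers did not set every morula pool apart from the blastocysts. Markers of other cells were most frequent or highest on 4 arrays. The first 4-cell array had 16 of 23 blood and leukocyte markers above 4, with a summed log2 value of 160 against 63.5 to 85.6 on the other arrays; S100A12 read 13.05, CTSS 13.55 and S100A8 11.14, against 4.72, 5.52 and 3.20 on the second 4-cell array. The first 2-cell array had 7 of these markers above 4 and 6 oviduct and uterine markers, with lactoferrin (LTF) at 13.86. The second in vivo oocyte array had 14 cumulus and granulosa cell markers above 4, with HSD17B1 at 11.03 and INHA at 10.95, and the first blastocyst array had LTF at 13.18. Fewer such markers were seen on in vitro oocyte array 3, with INHA at 5.62, TIMP1 at 8.84 and TNFAIP6 at 6.06 of the cumulus and granulosa list, all more than 2 log2 units above the other in vitro arrays, and on 8-cell array 3, with LTF at 10.94. What these cells contributed to any cytokine value was not tested, and results that rest on the first 4 of these arrays are given with and without them. In pooled material, fewer cells of a type and less RNA per cell cannot be told apart.

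Of the 89 genes, 25 (28.1%) read above 4 on every array of at least 1 group, whereas 72.4% of all 9155 genes did. A further 9 genes (10.1%, against 4.85% of all genes) read above 4 on several arrays without filling a group, and 5 genes (5.62%, against 2.96%) did so on a single array. The remaining 50 genes (56.2%, against 19.8%) did not exceed 4 on any array, and their highest values lay between 1.84 and 3.86. By this count 10 of the 19 interleukin receptors were read throughout at least 1 group, but only 3 of the 20 interleukins and 7 of the 26 chemokines. The number filling a group was nearly constant, at 11 or 12 in each of the 8 groups. Of all genes, 57.0% did so in in vitro oocytes, 58.0% in in vivo oocytes, 59.0% in zygotes, 60.7% and 60.3% at the 2-cell and 4-cell stages, 56.7% at the 8-cell stage, 60.9% in morulae and 61.9% in blastocysts. The composition turned over: 5 of the 25 genes had their highest mean in in vitro oocytes, 5 at the 4-cell stage, 5 at the 8-cell stage, 3 in morulae and 7 in blastocysts. For CCL3 and IL1RAP the 4-cell peak rested on the first 4-cell array, at 12.18 and 7.10 against 6.11 and 3.41 on the second. The groups of highest mean were not counted over all genes.

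**Figure D1:**
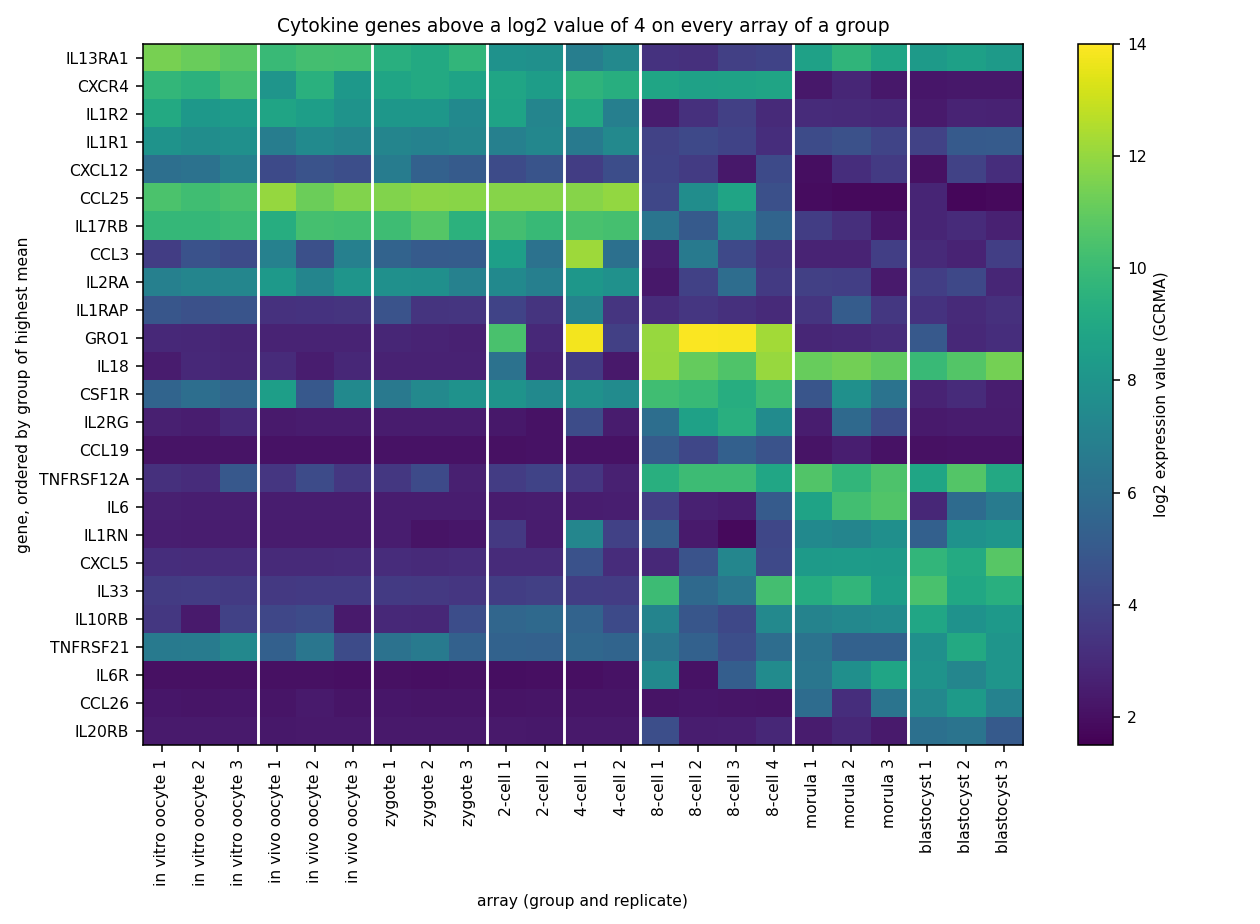
Log2 values (colour) of the 25 genes that read above 4 on every array of at least 1 group (rows), on all 23 arrays ordered by group (columns). CXCR4 and IL17RB stay high up to the 4-cell columns and are low in the morula and blastocyst columns, while IL18, TNFRSF12A and IL33 are high from the 8-cell columns onward.

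A probe set entered the tests if it read above 4 on at least 2 arrays, which left 34 of the 89 genes and 7070 genes in all; a gene confined to a single stage could pass this filter through that stage alone, so the shares below are descriptions of the genes that passed. With limma and Benjamini-Hochberg adjustment over all probe sets tested, 30 of the 34 genes passed an adjusted p of 0.05 in at least 1 of the 8 comparisons. The share of all genes that did so was not counted, but 68.9% passed from in vivo oocyte to blastocyst alone, so the 30 are no trait of these genes. In the F test over the 7 in vivo stages 25 passed, where 90.6% of all genes did. The numbers were small before the 8-cell stage. Between in vivo and in vitro oocytes 2 genes passed, where 12.4% of all genes did; both were higher in vitro, as were 0.721% of all genes, with 11.7% lower. No gene passed in limma from in vivo oocytes to zygotes (all genes 3.17%, 0.891% up and 2.28% down), with 2 genes at an unadjusted p under 0.05. The same was seen between the 2-cell and 4-cell groups (all genes 0.0141%, with 0.0% down), again with 2 genes at an unadjusted p under 0.05. From zygotes to the 2-cell stage 1 gene fell (all genes 3.34%, 1.41% up and 1.92% down).

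At the 8-cell stage 9 genes rose from 4-cell values (all genes 31.2%) and 11 fell (34.3%), 20 of 34 where 65.5% of all genes passed. From the 8-cell stage to the morula 6 rose and 8 fell (all genes 58.4%, 30.0% up and 28.4% down), and from the morula to the blastocyst 3 rose and 2 fell (all genes 9.5%, 5.74% up and 3.76% down). Over the whole span from in vivo oocyte to blastocyst 13 rose and 10 fell (all genes 68.9%, 36.2% up and 32.7% down). The last split depends on the scaling: with arrays centred on spike-in controls the median change of all genes was -0.53 in place of 0.08 on the log2 scale, 1762 genes rose and 2567 fell in place of 2560 and 2309, and of the 34 genes 11 rose and 10 fell. The 34 genes had a median change between the 4-cell and 8-cell groups of -0.23 on the log2 scale, against -0.03 for all genes. Neighbouring comparisons share arrays (the 4 8-cell arrays enter 2 of them), so their counts are not independent of each other.

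Among the chemokines, CXCL12 and CCL25 were higher in the oocyte than in the blastocyst by the probe sets used. CXCL12, the ligand of CXCR4 that guides migrating and stem cells, read 6.06, 6.21 and 6.95 in in vitro oocytes and 4.31, 4.70 and 4.49 in in vivo oocytes, and 6.74, 5.36 and 5.11 in zygotes. At the 2-cell stage it read 4.34 and 4.75, and from the 4-cell stage on it lay between 1.94 and 4.43. The 3 in vitro arrays were all above the 3 in vivo arrays, a 3.75-fold difference (log2 1.91, SE 0.57, adjusted p = 0.0411 with limma). This call was lost on spike-in centring (log2 1.76, adjusted p = 0.109) and without any 1 in vitro array, in vivo array 1 or 3, morula array 2 or blastocyst array 3 (adjusted p 0.0514 to 0.182, with limma). From in vivo oocyte to blastocyst CXCL12 fell by 1.46 on the log2 scale (adjusted p = 0.0298 with limma), to 2.05, 3.94 and 3.12, where no blastocyst array reached the oocyte range; without in vivo array 2 or 3, or blastocyst array 1 or 3, it did not pass.

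CCL25, a chemokine best known from the thymus and small intestine, read 12.04, 11.17 and 11.64 in in vivo oocytes and 11.75 and 11.97 at the 4-cell stage, then 4.14, 7.63, 8.80 and 4.53 on the 4 8-cell arrays and 1.90, 1.81 and 1.80 in morulae. The 8-cell arrays lay below every earlier array and above every later one, with a spread of their own. The fall from the 4-cell to the 8-cell stage was 48.1-fold (log2 -5.59, adjusted p = 9.48e-06) and that from the 8-cell stage to the morula at least 4.84-fold (adjusted p = 4.33e-05), both with limma. A lower group that contained arrays under 4 had those arrays set to 4 for the fold, hence "at least". Other probe sets that the array also names CCL25 ran the other way: one had group means of 4.06 at the 4-cell stage, 6.76 at the 8-cell stage, 8.39 in morulae and 9.04 in blastocysts, and its rise from the 4-cell to the 8-cell stage passed (log2 2.70, adjusted p = 0.00070 with limma). With the mean of the gene's probe sets, the fall to the 8-cell stage was -0.76 (adjusted p = 0.0242) and that to the morula did not pass (-0.52, adjusted p = 0.0800). The direction for CCL25 therefore holds for single probe sets, and which of them reads the gene was not tested.

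GRO1, a CXC chemokine of the growth-related oncogene group that attracts neutrophils, gave the largest step among the chemokines. It read 2.66 to 2.96 on the 9 oocyte and zygote arrays, 10.42 and 2.92 at the 2-cell stage, 13.77 and 3.87 at the 4-cell stage and 12.09, 13.93, 13.89 and 12.26 at the 8-cell stage. In morulae it read 2.86, 2.96 and 3.10, and in blastocysts 4.99, 2.96 and 3.12. All 4 8-cell arrays were high. Before that stage only the first 2-cell and the first 4-cell array were. These had 7 and 16 of the 23 blood and leukocyte markers above 4, and the first 2-cell array also had 6 oviduct and uterine markers. The source of the GRO1 signal was not tested. The rise from the 4-cell to the 8-cell stage was 4.22 on the log2 scale (SE 1.81, adjusted p = 0.0485), with overlapping arrays. It was 9.18 (adjusted p = 6.46e-05) without the first 4-cell array and -0.73 (adjusted p = 0.745) without the second, all with limma. The fall to the morula was at least 527-fold (log2 -10.07, SE 1.60, adjusted p = 2.26e-05 with limma). On the 8-cell arrays 19 of the 23 blood and leukocyte markers read between 1.93 and 3.94, below the background level; the others were CD52, NCF1, CTSS at 4.65 to 7.45 and the globin HBB at 7.07 to 10.79. Of GRO1's other probe sets, a pair moved the same way (8-cell to morula -5.79 and -5.78), and another had its highest values on the first 2-cell and 4-cell arrays (9.67 and 11.11).

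CXCL5, another CXC chemokine that acts on neutrophils, came later. Its log2 values were 2.99 to 3.14 on the arrays up to the 2-cell stage, 4.65 and 3.10 at the 4-cell stage and 2.93, 4.69, 7.24 and 4.24 at the 8-cell stage, then 8.29, 8.35 and 8.29 in morulae and 9.71, 9.14 and 10.77 in blastocysts. Every morula and blastocyst array was above every earlier one. The rise from the 8-cell stage to the morula was at least 9.62-fold (adjusted p = 1.02e-04) and that from oocyte to blastocyst at least 58.6-fold (adjusted p = 3.64e-08), with limma. In the RefSeq annotation of the cattle genome (ARS-UCD2.0) 4 genes lie between CXCL5 and GRO1 on the same chromosome, and CXCL3 lies directly beside GRO1; CXCL3 did not exceed 2.30 on any array, and the morula arrays that were high for CXCL5 were at the background for GRO1.

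CCL26, an attractant of eosinophils, was a chemokine of the morula and blastocyst. It read between 2.14 and 2.40 on all 17 arrays up to the 8-cell stage, 5.94, 3.15 and 6.31 in morulae and 7.34, 8.29 and 7.05 in blastocysts. No value of the 2 late stages fell into the earlier range. The rise to the morula was 2.93 on the log2 scale (adjusted p = 4.19e-05) and that from the morula to the blastocyst at least 4.42-fold (adjusted p = 0.00516), with limma. CCL19, a ligand for the homing receptor of lymphocytes and dendritic cells, was instead confined to the 8-cell arrays, at 5.07, 4.17, 5.33 and 4.68. It read 2.06 to 2.54 on the 19 other arrays. Its rise from the 4-cell stage (log2 2.69, at least 1.76-fold, adjusted p = 5.20e-08) and its fall to the morula (-2.54, adjusted p = 3.07e-08) both passed with limma, at values little above the background level.

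CCL3, an inflammatory chemokine of macrophages, read 6.98, 4.55 and 6.94 in in vivo oocytes, 8.53 and 6.19 at the 2-cell stage and 12.18 and 6.11 at the 4-cell stage. The 8-cell arrays read 2.54, 6.67, 4.27 and 3.42, and the 6 later arrays 2.74 to 3.81. Its highest value was on the first 4-cell array, and the 8-cell arrays overlapped the second. The fall from the 4-cell to the 8-cell stage was 4.92 on the log2 scale (adjusted p = 0.00145) with both 4-cell arrays and 1.89 (adjusted p = 0.175) without the first, with limma. Over the whole span from oocyte to blastocyst the change was -2.98 (adjusted p = 0.0281 with limma), and it did not pass without in vivo oocyte array 1 or 3 or without blastocyst array 1 or 2 (adjusted p 0.0664 to 0.0931). The other CCL3 probe set changed by 0.20 over this span (adjusted p = 0.857), and with the mean of both the change was -0.93 (adjusted p = 0.203, with limma).

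**Figure D2:**
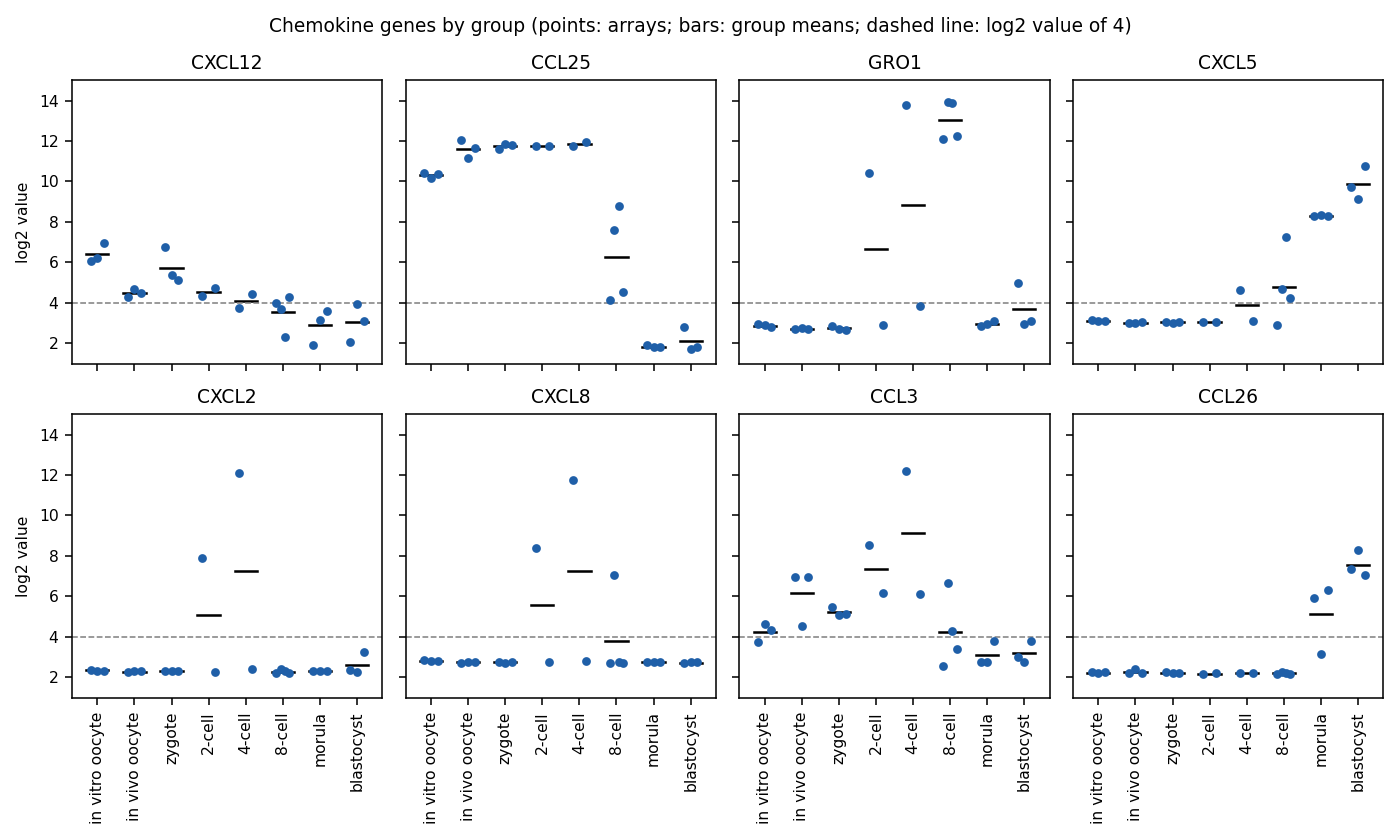
Log2 values of 8 chemokines in each group; points are arrays, bars are group means and the dashed line is the background level of 4. CCL25 is high up to the 4-cell stage and CXCL5 and CCL26 from the morula on; for GRO1, CXCL2, CXCL8 and CCL3 the first 2-cell and 4-cell arrays lie far above the second, and GRO1 is also high on all 4 8-cell arrays.

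CXCR4, the receptor for CXCL12, was the only chemokine receptor of the 8 that filled a group. Its log2 values were 9.78, 9.53 and 10.25 in in vitro oocytes, 8.00, 9.41 and 8.18 in in vivo oocytes, and 8.46 to 9.62 on the zygote, 2-cell and 4-cell arrays. At the 8-cell stage it read 8.87, 8.66, 8.70 and 8.80, in morulae 2.32, 2.85 and 2.32, and in blastocysts 2.26, 2.30 and 2.30. The receptor was thus high on all 17 arrays to the 8-cell stage and at the background on all 6 arrays after it. The fall to the morula was at least 27.1-fold (log2 -6.26, SE 0.31, adjusted p = 4.08e-12 with limma), the smallest adjusted p of any of the 34 genes in that step. In vitro oocytes were 2.50-fold above in vivo oocytes (log2 1.32, SE 0.33, adjusted p = 0.0164 with limma), with no overlap between the 3 arrays of each. That call was lost on spike-in centring (log2 1.18, adjusted p = 0.325) and without in vitro array 3 or in vivo array 1 or 3 (adjusted p 0.0912 to 0.130, with limma). In vitro array 3, with its 3 cumulus markers, was the highest array for both CXCL12 and CXCR4, and without it the differences were 1.64 (adjusted p = 0.171) and 1.12 (adjusted p = 0.0925), with limma. By the probe sets used, CXCL12 and CXCR4 were the only 2 of the 34 genes to pass between the oocyte groups, and both were higher in vitro. CCL25 did not pass by the probe set used (log2 -1.29, adjusted p = 0.411). It was lower in vitro by another of its probe sets (-1.98, adjusted p = 0.0369) and by their mean (-1.08, adjusted p = 0.0103, with limma). The second in vivo array, which carried the cumulus markers, read 4.70 for CXCL12 and 9.41 for CXCR4, the highest of its group for both. Without that array 4 genes passed, with TNFRSF21 (log2 2.05, adjusted p = 0.0109) and CSF1R (log2 -2.23, adjusted p = 0.0135, with limma) added.

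CCR4, a receptor on T helper cells, read 4.75, 3.95 and 4.75 in blastocysts and 2.71 to 2.77 in in vivo oocytes (log2 1.75, at least 1.40-fold, adjusted p = 9.03e-04, and 1.14, adjusted p = 0.104 on spike-in centring, with limma). It remained close to the background level throughout, and 1 array each of the 8-cell stage and the morula read 4.38. The other 6 chemokine receptors, among them CCR9 and CCR3, the receptors for CCL25 and CCL26, did not exceed 4 on any array.

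IL18 and IL33 filled the 8-cell, morula and blastocyst groups, and IL6 filled the morula group alone. IL18, an interferon-gamma-inducing cytokine of the interleukin 1 family, read 2.44 to 3.04 on the 9 oocyte and zygote arrays, 6.19 and 2.71 at the 2-cell stage and 3.66 and 2.37 at the 4-cell stage. It then read 12.01, 11.05, 10.58 and 12.05 at the 8-cell stage, 11.12, 11.34 and 10.95 in morulae, and 9.95, 10.64 and 11.40 in blastocysts. All 10 late arrays were above all 13 early ones by more than 3 log2 units. The rise from the 4-cell to the 8-cell stage was at least 172-fold (log2 8.41, SE 0.66, adjusted p = 1.69e-09 with limma), the smallest adjusted p among the 34 genes in that step. IL18R1, its receptor's binding chain, did not exceed 3.20 on any array.

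IL33, a nuclear cytokine released by damaged epithelium, followed with more spread. Its values were 3.45 to 3.85 on the 13 arrays up to the 4-cell stage, 10.07, 5.79, 6.48 and 10.28 at the 8-cell stage, 9.23, 9.74 and 8.48 in morulae and 10.39, 8.93 and 9.39 in blastocysts. Each late array was above each early one, but 8-cell arrays 2 and 3 lay well below the other late arrays. The rise from the 4-cell to the 8-cell stage was at least 17.8-fold (log2 4.42, adjusted p = 1.97e-04) and that from oocyte to blastocyst at least 47.5-fold (adjusted p = 2.85e-06), with limma. The 2 other probe sets named IL33 were high only at the 8-cell stage and fell to the morula (-2.40 and -2.19), which this probe set did not.

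IL6, a pleiotropic cytokine that signals through STAT3, was confined to the later stages and peaked in the morula. It read 2.45 to 2.61 on the 13 arrays up to the 4-cell stage, 3.89, 2.63, 2.51 and 5.07 at the 8-cell stage, 8.73, 10.20 and 10.62 in morulae, and 2.87, 5.86 and 6.71 in blastocysts. The morula arrays stood above all others. Its rise to the morula was at least 47.9-fold (log2 6.32, SE 0.69, adjusted p = 1.96e-07) and its fall to the blastocyst at least 20.1-fold (log2 -4.70, adjusted p = 2.78e-04), with limma. From oocyte to blastocyst IL6 remained higher (log2 2.64, at least 2.21-fold, adjusted p = 0.00372 with limma), although the first blastocyst array was at the background.

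IL1A, which triggers inflammation through IL1R1, filled no group. It was highest on the first 4-cell array, at 8.82 against 2.84 on the second, and read 5.96 on the first 2-cell array. It also read 6.46 and 6.38 in morula pools 2 and 3, against 3.12 in pool 1, and 5.02, 4.06, 3.01 and 5.07 at the 8-cell stage. No comparison of IL1A passed; the change from the 8-cell stage to the morula was 1.03 (SE 1.04, adjusted p = 0.432 with limma). IL1RN, the antagonist that occupies IL1R1 without signalling, filled both late groups. It read 5.21, 2.40, 1.83 and 4.18 at the 8-cell stage, 7.43, 7.16 and 7.74 in morulae and 5.32, 7.89 and 8.09 in blastocysts, against 2.15 to 2.53 in oocytes and zygotes. The morula arrays were all above the 8-cell arrays, a rise of at least 8.55-fold (log2 4.04, adjusted p = 1.75e-04 with limma). A fall from the 4-cell to the 8-cell stage (log2 -2.18, adjusted p = 0.0360) rested on the first 4-cell array, at 7.26 against 3.92; without it the change was -0.52 (adjusted p = 0.710, with limma). It also missed the threshold without 8-cell array 2 or 3.

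IL1R1 and IL1R2, receptors for interleukin 1, were higher up to the 4-cell stage than after it, though IL1R1 also filled the morula group. IL1R1, the signalling receptor, read 6.78, 7.47 and 7.20 in in vivo oocytes and 6.67 and 7.38 at the 4-cell stage, then 3.97, 4.24, 4.01 and 3.13 at the 8-cell stage and 3.98 to 5.08 on the 6 morula and blastocyst arrays. The early and late arrays did not overlap. IL1R1 fell at least 7.79-fold from the 4-cell to the 8-cell stage (adjusted p = 3.67e-07 with limma). IL1R2, the decoy receptor that binds interleukin 1 without signalling, is its direct neighbour in the annotation. It read 6.89 to 9.10 on the 13 early arrays and 2.41 to 3.89 on the 10 later ones. Its fall over the same step was at least 15.6-fold (log2 -4.81, adjusted p = 1.54e-07), and -3.74 on the log2 scale (adjusted p = 2.41e-05) without the first 4-cell array, with limma. IL1RAP, the shared accessory chain, read 4.87, 4.61 and 4.73 in in vitro oocytes but 3.26, 3.33 and 3.39 in in vivo oocytes, a difference that did not pass. It read 7.10 on the first 4-cell array and 3.41 on the second, and its fall to the 8-cell stage (log2 -2.06, adjusted p = 0.0107) did not pass without the first (-0.22, adjusted p = 0.796, with limma).

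IL13RA1, a receptor chain for interleukins 4 and 13, went down and came back. It read 9.98, 10.29 and 10.20 in in vivo oocytes, 9.40, 9.12 and 9.74 in zygotes, 7.87 and 7.75 at the 2-cell stage and 6.87 and 7.37 at the 4-cell stage. At the 8-cell stage it was at the background, at 3.33, 3.25, 3.85 and 4.01, and then read 8.63, 9.70 and 8.86 in morulae and 8.32, 8.61 and 8.30 in blastocysts. No array of the 8-cell group reached any array before or after it. The fall from the zygote to the 2-cell stage was 3.06-fold (adjusted p = 0.0177), the only call among the 34 genes in that step, and did not pass without zygote array 1 or either 2-cell array (adjusted p 0.0713 to 0.144), on spike-in centring (log2 -1.48, adjusted p = 0.428) or with the mean of the gene's probe sets (-0.33, adjusted p = 0.758, with limma). The fall to the 8-cell stage was at least 8.68-fold (adjusted p = 3.21e-08) and the rise to the morula at least 33.3-fold (log2 5.45, SE 0.30, adjusted p = 1.72e-11), with limma. A second IL13RA1 probe set stayed between 2.5 and 5.8 throughout.

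IL17RB, a receptor for interleukins 17B and 25, read between 9.28 and 10.72 on all 13 arrays up to the 4-cell stage. The 8-cell arrays read 6.37, 5.04, 7.39 and 5.53, the morula arrays 3.77, 3.17 and 2.26 and the blastocyst arrays 2.79, 3.06 and 2.67. Each of these 3 groups lay wholly below the group before it, except that morula and blastocyst overlapped. IL17RB fell 19.5-fold to the 8-cell stage (adjusted p = 7.66e-07) and at least 4.24-fold further to the morula (adjusted p = 1.73e-05), in all at least 60.7-fold from oocyte to blastocyst (adjusted p = 2.52e-10), with limma.

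The receptor chains for interleukin 2 changed in opposite directions at the 8-cell stage. IL2RA, the chain that gives high affinity for interleukin 2, read 6.91 to 8.23 on the 13 early arrays and 2.32, 3.92, 5.94 and 3.61 at the 8-cell stage. It stayed between 2.41 and 4.20 afterwards, and the fall was at least 11.2-fold (adjusted p = 3.09e-05 with limma). IL2RG, the common chain that also serves interleukins 4, 7, 9, 15 and 21, read 4.39 and 2.48 at the 4-cell stage, 6.01, 8.64, 9.39 and 7.53 at the 8-cell stage, 2.49, 5.78 and 4.42 in morulae and 2.39 to 2.46 in blastocysts. Its rise was at least 13.0-fold (log2 4.46, adjusted p = 4.12e-05) and its fall to the morula at least 8.94-fold (log2 -3.66, adjusted p = 1.17e-04), with limma. All 8-cell arrays were above all others for IL2RG. IL2 itself did not exceed 2.87 on any array.

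IL6R, the ligand-binding receptor for interleukin 6, read 1.98 to 2.09 on the 13 arrays up to the 4-cell stage, 7.41, 2.12, 5.25 and 7.54 at the 8-cell stage, 6.38, 7.72 and 8.83 in morulae and 7.91, 7.24 and 8.03 in blastocysts. The 8-cell arrays spanned almost the whole range, and the second was at the background. IL6R rose from the 4-cell to the 8-cell stage (log2 3.53, adjusted p = 0.00343) and from oocyte to blastocyst (at least 13.2-fold, adjusted p = 1.69e-05), with limma. A further rise from the 8-cell stage to the morula (log2 2.06, adjusted p = 0.0461) had overlapping arrays, and with the mean of the gene's probe sets the change was -0.13 (adjusted p = 0.882, with limma). The second IL6R probe set also rose from the 4-cell to the 8-cell stage (log2 3.08, adjusted p = 1.82e-05), but it fell to the morula (-2.32, adjusted p = 1.41e-04) and changed by 0.05 from oocyte to blastocyst (adjusted p = 0.956), with limma. After the 8-cell stage the probe sets thus disagree, and which of them reads IL6R was not tested.

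A pair of receptor chains of the interleukin 10 family had their highest means in blastocysts. IL10RB, shared by interleukins 10 and 22 and the type III interferons, read 4.16, 4.34 and 2.40 in in vivo oocytes, 7.09, 7.32 and 7.55 in morulae and 8.88, 7.87 and 8.19 in blastocysts, at least 17.7-fold higher in blastocysts than in oocytes (log2 4.68, adjusted p = 1.23e-05 with limma). The 8-cell arrays read 7.16, 4.86, 4.21 and 7.39, so that arrays 1 and 4 were already near the morula values. With all arrays no single step between consecutive stages passed for IL10RB. With 8-cell arrays 1 and 4 alone the rise from the 4-cell stage passed (log2 2.38, adjusted p = 0.00423 with limma). With arrays 2 and 3 alone the rise to the morula did (log2 2.78, adjusted p = 9.16e-04 with limma). IL20RB, a chain for interleukins 19, 20 and 24, read 6.14, 6.32 and 5.04 in blastocysts, 2.45, 2.89 and 2.39 in morulae, and 2.32 to 4.52 on the earlier arrays. It rose at least 3.55-fold from the morula to the blastocyst (log2 3.25, adjusted p = 2.74e-05 with limma), and no earlier array reached a blastocyst value.

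CSF1R, the macrophage colony-stimulating factor receptor, peaked at the 8-cell stage and was at the background in the blastocyst. It read 8.49, 4.94 and 7.44 in in vivo oocytes, 6.56, 7.38 and 7.86 in zygotes, 7.94 and 7.44 at the 2-cell stage and 7.81 and 7.54 at the 4-cell stage. The 8-cell arrays read 10.18, 9.94, 9.30 and 10.13, the morula arrays 4.79, 7.76 and 6.24, and the blastocyst arrays 2.76, 3.05 and 2.48. All 8-cell arrays were above all others. The rise to the 8-cell stage was 4.63-fold (log2 2.21, adjusted p = 0.0141), and it missed the threshold without either 4-cell array (log2 2.35, adjusted p = 0.0525, and 2.08, adjusted p = 0.0853) and on spike-in centring (1.95, adjusted p = 0.0612), with limma. The falls from the 8-cell stage to the morula, 12.3-fold (adjusted p = 9.89e-05), and from the morula to the blastocyst, at least 4.79-fold (adjusted p = 0.00297), both passed with limma. Its ligands CSF1 and IL34 stayed at or below 3.31 and 3.18 by the probe sets used, but a further CSF1 probe set read 6.57 on the first 4-cell array.

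TNFRSF12A, the growth factor-inducible receptor for the TNF relative TWEAK, was high from the 8-cell stage on. It read 2.61 to 4.92 on the 13 early arrays, 9.39, 10.08, 10.08 and 8.91 at the 8-cell stage, 10.61, 9.72 and 10.52 in morulae and 8.85, 10.68 and 9.06 in blastocysts. Early and late arrays were nearly 4 log2 units apart. The rise from the 4-cell stage was at least 49.1-fold (log2 6.54, SE 0.60, adjusted p = 1.32e-08 with limma), while a second probe set did not exceed 4.15. TNFRSF21, a death-domain receptor, read 6.26, 5.37 and 5.37 in morulae and 7.80, 9.11 and 8.03 in blastocysts, with no overlap. It rose 6.26-fold in that step (log2 2.65, adjusted p = 0.00290) and was 7.72-fold above in vivo oocytes (adjusted p = 6.25e-05), with limma. TNFRSF6B, a soluble decoy, read 4.14, 1.69, 1.65 and 5.07 on the 8-cell arrays. Its calls to and from that stage (log2 1.47, adjusted p = 0.0467, and -1.45, adjusted p = 0.0315, with limma) rested on arrays 1 and 4. TNFRSF1B, a receptor for TNF itself, stayed between 2.80 and 4.72 and passed no comparison. No TNF family ligand of the 3 exceeded 4.

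**Figure D3:**
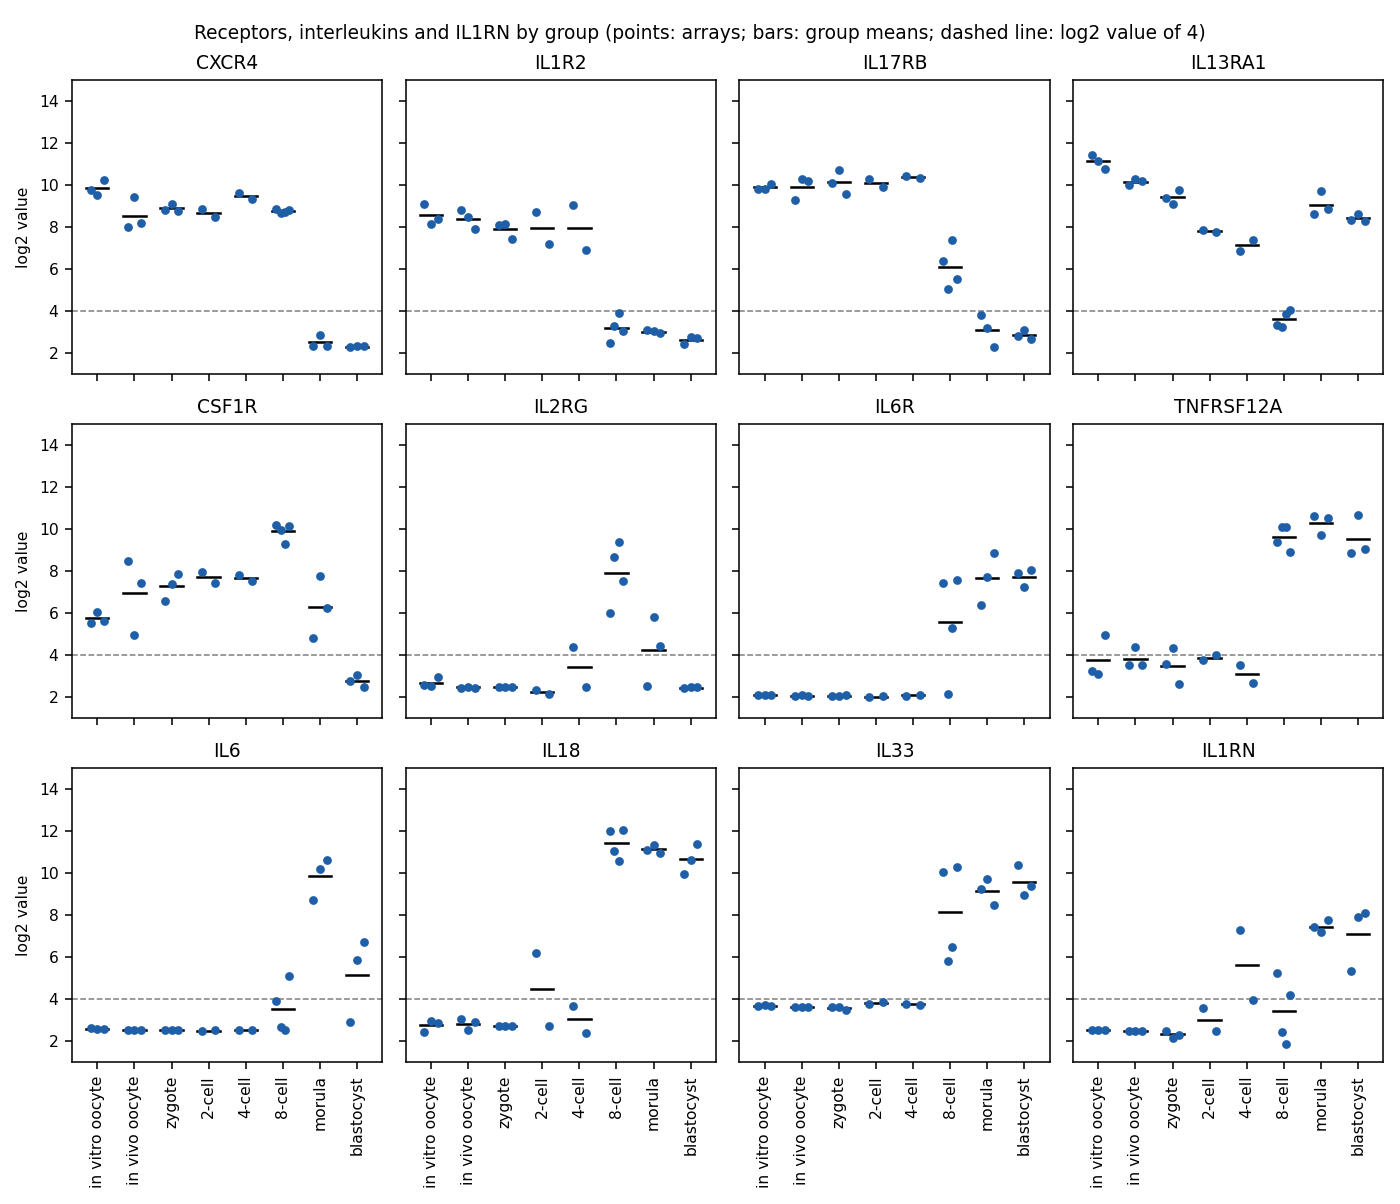
Log2 values of 8 receptors, 3 interleukins and IL1RN in each group; points are arrays, bars are group means and the dashed line is the background level of 4. CXCR4 drops between the 8-cell stage and the morula, IL1R2 and IL17RB between the 4-cell and the 8-cell stage, IL13RA1 has its only low point at the 8-cell stage, and IL6 has its high point in the morula.

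Genes high on single arrays were a separate class. On the first 4-cell array 13 of the 89 genes read above 4 and more than 2 log2 units above the other 4-cell array. On the first 2-cell array 8 did, and 6 genes did so on both. Such an excess was not counted over all genes, so whether these counts are particular to the 89 genes was not tested. CXCL2 read 12.12 and 2.43 on the 4-cell arrays and 7.88 and 2.28 on the 2-cell arrays. CXCL8 read 11.76 and 2.80, and 8.37 and 2.74. Both attract neutrophils, and both stayed near the background on nearly all other arrays; the exceptions above 4 were CXCL8 at 7.08 on the second 8-cell array and none for CXCL2. CCL2, which attracts monocytes, read 10.10 and 3.06 at the 4-cell stage. The falls of CXCL2 (log2 -4.99, adjusted p = 0.00979) and CCL2 (-3.60, adjusted p = 0.00529) to the 8-cell stage became -0.14 (adjusted p = 0.949) and -0.09 (adjusted p = 0.921) without the first 4-cell array, with limma.

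In a further 5 genes 1 array alone exceeded 4. CSF2RB, the common chain of the GM-CSF receptor, at 8.02, the chemokine CCL4 at 7.83 and TNFRSF1A, the main TNF receptor, at 4.47 did so on the first 4-cell array. CXCL17, a mucosal chemokine, did so at 6.63 on the first 2-cell array, and IL17RC at 4.04 on the second 8-cell array. The arrays with the most genes of the 89 above 4 were the first 4-cell (24) and the first 2-cell array (21), together with 8-cell array 4 (21). Of all probe sets 43.3% to 47.0% exceeded 4 on an array. Leaving out the first 4-cell array leaves 1 array in that group. Of the 20 calls from the 4-cell to the 8-cell stage, those of CCL2, CCL3, CXCL2, IL1RAP and IL1RN then shrank. Their log2 changes became -0.09, -1.89, -0.14, -0.22 and -0.52, in place of -3.60, -4.92, -4.99, -2.06 and -2.18. The changes of CSF1R (2.35 in place of 2.21) and TNFRSF6B (1.47 in both fits) did not shrink. CXCL16, a membrane-bound chemokine, rose from oocyte to blastocyst (log2 2.66, adjusted p = 0.0235) with blastocyst values of 8.02, 3.77 and 4.34, and its change was 1.34 (adjusted p = 0.210) without the first blastocyst array. It was also lost without in vivo oocyte array 1 and on spike-in centring (2.05, adjusted p = 0.0979, with limma).

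**Figure D4:**
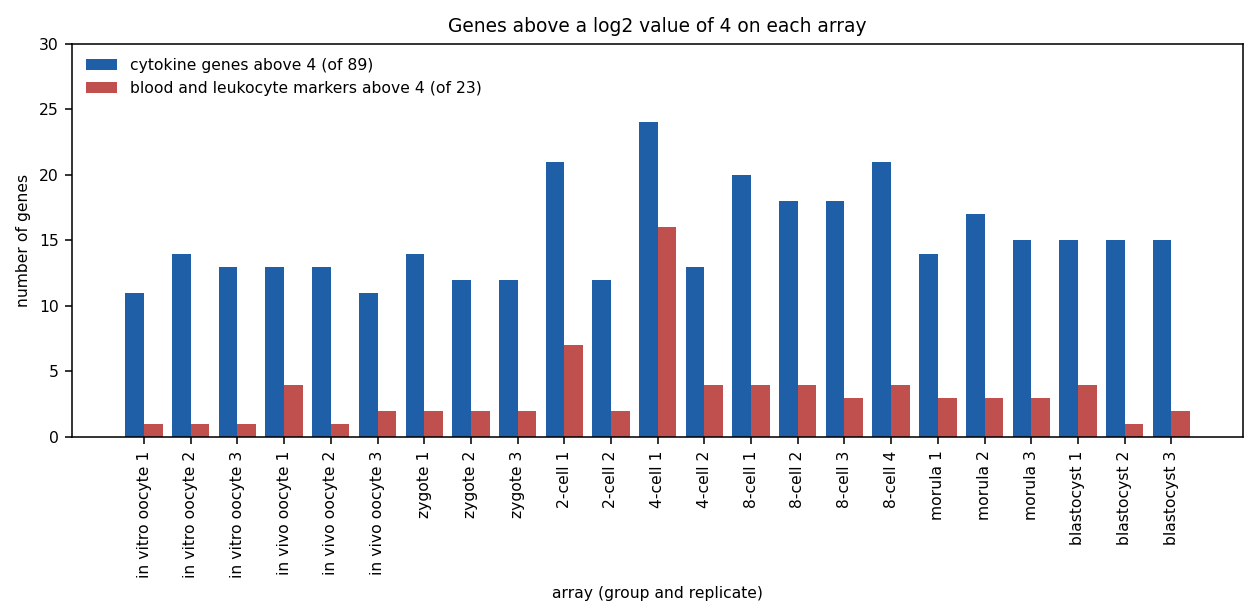
Number of cytokine, chemokine and receptor genes (of 89) and of blood and leukocyte markers (of 23) above a log2 value of 4 on each of the 23 arrays. The first 4-cell array holds the most of both, 24 and 16, and the first 2-cell array 21 and 7, while the 8-cell arrays hold 18 to 21 of the genes and 3 or 4 of the markers. Of all probe sets 43.3% to 47.0% exceeded 4 on an array.

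The 8-cell group had the widest range of any group for these genes. The median range over the 4 arrays was 2.02 log2 units for the 25 genes that filled a group, against 0.26 to 1.10 in the other groups, and 9 of the 25 ranged over more than 3 units. A range tends to grow with the number of arrays, which was 2 or 3 in the other groups. How far this widened the gap was not tested, and the range of all genes was not taken. Arrays 1 and 4 were alike (Pearson r = 0.985 across 7070 genes, as a description), and so were arrays 2 and 3 (0.970), with 0.912 to 0.927 between the pairs. In 11 of the 25 genes arrays 1 and 4 were both above arrays 2 and 3, as for IL33, IL6R and IL10RB. The reverse held for 11, as for CCL25, IL2RG and GRO1, and 3 were mixed. These counts follow the order of the arrays alone. They include genes with little spread, such as CXCR4 (range 0.20) and CCL26 (range 0.12, at the background). The same order was not counted over all genes, so the counts are no trait of these genes. The oocyte transcripts MOS (6.46, 10.65, 10.70 and 6.59) and BMP15 (6.94, 10.88, 11.32 and 7.55) were higher on arrays 2 and 3. Arrays 1 and 4 were higher for the epithelial keratin KRT18 (8.61, 2.37, 2.15 and 8.40) and the oviduct marker OVGP1 (7.96, 3.63, 3.01 and 7.62). Of the 7 trophectoderm markers, KRT18 among them, 1, 0, 0 and 1 read above 4 on arrays 1 to 4. Of the 10 oviduct and uterine markers 2, 1, 2 and 3 did. Whether the pools differed in stage between 8 and 16 cells, or in oviduct RNA, was not tested.

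**Figure D5:**
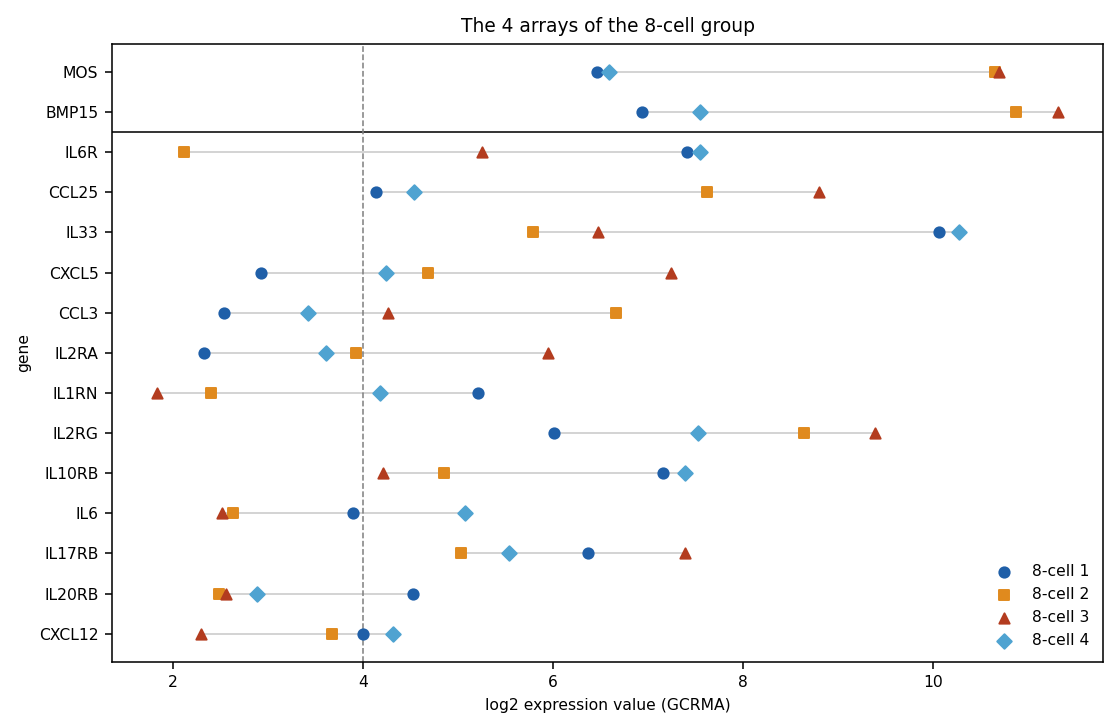
Log2 values on the 4 8-cell arrays of the 13 genes whose range there exceeded 2, with the oocyte transcripts BMP15 and MOS. Arrays 1 and 4 lie together and apart from arrays 2 and 3 for CCL25, IL10RB, IL33, BMP15 and MOS. IL17RB has another order, and for CXCL5, IL2RA, IL2RG and IL20RB array 4 lies nearer to array 2 than to array 1.

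The choice of 8-cell arrays changed many calls. Over the steps to and from that stage, which had 20 and 14 calls with all arrays, leaving out either pair lost 9 calls and added 11 in all. With arrays 2 and 3 alone the rises of CSF1R, GRO1, IL6R and TNFRSF6B to the 8-cell stage and the fall of IL1RAP did not pass, and CXCL5 rose (log2 2.09, adjusted p = 0.00904 with limma). With arrays 1 and 4 alone the changes of GRO1 and IL1RN to the 8-cell stage did not pass, and IL6, IL10RB, IL20RB and CCR4 rose while CXCL8 fell. To the morula, arrays 2 and 3 alone lost the TNFRSF6B call and added IL10RB (log2 2.78) and IL2RA (-1.57), and arrays 1 and 4 alone lost the IL6R call and added IL20RB (-1.13). With arrays 2 and 3 alone IL33 rose from the 8-cell stage to the morula (log2 3.01), and with arrays 1 and 4 alone it fell (-1.02), both passing with limma, whereas the change over all 4 arrays did not pass (0.99, adjusted p = 0.299). For IL18 the rise from the 4-cell stage was 7.80 (adjusted p = 1.24e-07) with arrays 2 and 3 and 9.02 (adjusted p = 1.32e-08) with arrays 1 and 4, with limma. GRO1 fell to the morula with either pair (-10.94, adjusted p = 1.87e-04, and -9.20, adjusted p = 8.83e-04, with limma).

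Ligands were set beside their receptors by stage. Of 22 ligand and receptor pairs among the 89 genes, 3 had both genes above 4 on all arrays of a shared group. These were CXCL12 with CXCR4 in both oocyte groups, zygotes and 2-cell embryos, IL6 with IL6R in morulae, and the antagonist IL1RN with IL1R1 in morulae. The pair of IL6 and IL6R holds by the IL6R probe set used, while the second IL6R probe set fell from the 8-cell stage to the morula (log2 -2.32). IL1A filled no group, but it was above 4 together with IL1R1 on 5 arrays. Only 11 or 12 of the 89 genes filled each group. No rate was taken for other gene pairs, so whether 3 of 22 is few was not tested. For CCL25, CCL26 and IL18 the ligand filled a group while the receptor CCR9, CCR3 or IL18R1 stayed below 4 on all arrays. For CCL25 this was read by the probe set used, and other probe sets of that name ran the other way over the stages. For IL2RA and IL13RA1 the ligands IL2 and IL13 stayed below 4, as did IL34 and, by the probe set used, CSF1 for CSF1R; the further CSF1 probe set exceeded 4 on the first 4-cell array. LIF, a cytokine of implantation, did not exceed 3.66, and CSF2, IL1B, IL10 and CXCL10 were likewise below 4 on all arrays, where the probe sets give no level.

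Genes that carry cytokine signals inside the cell were read from 4 further lists, of which 46 genes were tested. In these lists 9 genes rose and 20 fell from the 4-cell to the 8-cell stage, and 12 rose and 16 fell from there to the morula. These shares, 63.0% and 60.9% of the 46, lie near the 65.5% and 58.4% of all genes. Of the 6 JAK kinases and STATs on the array 3 were tested, and all fell to the 8-cell stage. JAK1, the kinase that serves most interleukin receptors, read 12.20 and 12.62 at the 4-cell stage, 7.09, 5.99, 7.50 and 7.27 at the 8-cell stage and 10.38, 10.73 and 10.34 in morulae. It fell 43.5-fold (adjusted p = 2.64e-11) and then rose 11.5-fold (adjusted p = 2.95e-09), with limma, with no overlap at either step. STAT3, which acts downstream of interleukin 6, fell 54.9-fold (adjusted p = 4.86e-06) and rose 7.16-fold (adjusted p = 0.00256), with limma. The third, STAT2 of the interferon pathway, fell by 1.81 on the log2 scale and did not pass in the step to the morula.

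Among 14 tested inhibitors of cytokine signalling 4 rose and 3 fell to the 8-cell stage, and 3 rose and 8 fell to the morula; of all genes 31.2% rose and 34.3% fell to the 8-cell stage, and 30.0% and 28.4% to the morula. SOCS2, a feedback inhibitor, rose 39.2-fold to the 8-cell stage (log2 5.29, adjusted p = 2.46e-10 with limma). NFKBIA, which holds NF-kappa-B in the cytoplasm, fell 31.2-fold (log2 -4.96, adjusted p = 1.18e-07 with limma). PIAS3, an inhibitor of STAT3, fell 11.0-fold from the 8-cell stage to the morula (adjusted p = 1.83e-06), and TNIP1, a brake on NF-kappa-B, rose 11.7-fold from the morula to the blastocyst (adjusted p = 4.82e-05), with limma. Of 20 tested adaptors and NF-kappa-B genes 4 rose and 11 fell to the 8-cell stage, beside the same 31.2% and 34.3%. FADD, the adaptor of death receptors, rose at least 16.4-fold (adjusted p = 2.71e-07) and BIRC3, an inhibitor of apoptosis at TNF receptors, 12.2-fold (adjusted p = 1.85e-05), with limma.

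Of 26 cytokines and receptors with other kinds of symbol on the array 9 were tested, 1 of which rose and 3 of which fell to the 8-cell stage, where 65.5% of all genes passed. KIT, the stem cell factor receptor, had group means of 12.17 at the 4-cell stage, 5.51 at the 8-cell stage and 11.46 in morulae. It fell 101-fold (adjusted p = 3.91e-09) and rose again 61.9-fold (adjusted p = 4.57e-09), with limma. The death receptor FAS rose at least 3.90-fold to the morula (adjusted p = 3.49e-09) and fell at least 3.90-fold to the blastocyst (adjusted p = 1.68e-05), with limma. XCL1, a lymphocyte chemokine, rose to the 8-cell stage and fell after it (log2 3.70, adjusted p = 0.0443, and -3.69, adjusted p = 0.0281, with limma), on 8-cell arrays 1 and 4 alone. In vitro oocytes were lower than in vivo oocytes for 4 of the 46 genes and higher for none: IRAK1 (log2 -2.33), the phosphatase PTPN2 (-2.16), IKBKB (-2.02) and STAT2 (-1.25), with adjusted p between 3.70e-04 and 0.0395 from limma. Of all genes 11.7% were lower and 0.721% higher, so this one-sided count is near that of the whole array.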

How the data were processed

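RNA of 23 pools was measured on bovine GeneChip arrays. The authors deposited 1 table of log2 values, made with GCRMA 2.0.0 per the submitters' processing notes, a method that models background from probe sequence and, as usually run, brings arrays to 1 common distribution, so that low values lie together near 2 to 4 and stage differences in total RNA are lost; its settings are not given in the sources used here. No further normalisation was applied. Control probe sets (112 of 24128) were left out, leaving 24016, of which 13292 carry 1 gene symbol in the platform annotation. Probe sets above 4 on at least 2 arrays (14571) were fitted with limma 3.58.1 in R 4.3.3 (8 group means, 1 shared spread with 15 residual degrees of freedom, eBayes with trend, two-sided), with Benjamini-Hochberg adjustment per comparison and a threshold of 0.05; the procedure was tested on simulated data. A gene took its highest-mean probe set. Array precision is limited by the 2 to 4 arrays in a group, and p-values measure the spread between these pools. The genes, the role, pathway and marker lists and the ligand and receptor pairs were chosen with earlier results of these data known; named genes were those that passed and filled a group, those above 4 on 1 array, a fixed list of cytokines, and the largest changes of each pathway list. Symbols were matched to RefSeq (ARS-UCD2.0) for 88 of 89 genes. TNFSF12 lies only on probe sets with several symbols and is not named here. Alternatives were array centring on spike-in controls, averaging a gene's probe sets, other background levels, another filter or none, no variance trend, a spread from the compared groups alone, a replicate block, arrays left out in turn, and, chosen after seeing the data, pairs of 8-cell arrays. Figures were drawn with matplotlib 3.10.9.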

Additional observations from a re-analysis of the deposited data

How the results depend on the processing

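Of the 65 calls on the genes, 41 kept their direction and passed under all settings tried; over 2079 recomputed values, 1915 passed in the same direction, 161 did not pass and 3 changed sign. With the spread taken from the compared groups alone the calls were 0 between the oocyte groups, 0 from zygote to 2-cell, 12 from 4-cell to 8-cell and 1 from morula to blastocyst. Arrays centred on spike-in controls gave 0 calls between the oocyte groups and 0 from zygote to 2-cell, and averaging a gene's probe sets gave 0 from zygote to 2-cell. Without the 4 arrays carrying markers of other cells, 5 genes differed between the oocyte groups, 0 changed from zygote to 2-cell, 15 from 4-cell to 8-cell, 12 from 8-cell to morula and 21 from oocyte to blastocyst. A background of 3 put 9 genes above it on 1 array. Leaving out each array in turn gave 0 to 4 calls between the oocyte groups (4 without in vivo oocyte array 2), 0 from oocyte to zygote, 0 to 1 from zygote to 2-cell, 0 to 3 from 2-cell to 4-cell (3 without 4-cell array 2), 13 to 19 from 4-cell to 8-cell (13 without 4-cell array 1), 12 to 14 from 8-cell to morula, 5 to 6 from morula to blastocyst, 20 to 23 over the whole span and 25 to 31 in the F test. The sign changed for GRO1 from 4-cell to 8-cell (-0.73 without 4-cell array 2, 9.18 without array 1), for IL6R from 8-cell to morula (-0.13 with averaged probe sets), and for TNFRSF6B in that step (0.018 without 8-cell arrays 1 and 4, a setting chosen after seeing the data); the cause was not tested. GRO1 from 4-cell to 8-cell and TNFRSF6B in the same step each missed the threshold in 27 settings, IL6R from 8-cell to morula in 25.

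The titles give the groups the same replicate numbers, but of 21 same-numbered pairs in the groups compared 5 had deviations that correlated above 0.1 (range -0.38 to 0.49). The numbers were therefore not taken to pair the arrays. The highest value, 0.49, was that of the 2-cell and 4-cell groups, whose first arrays thus deviated together. With 2 arrays in each of these groups the deviations mirror each other, so this 1 value enters the count under both replicate numbers. With the replicate block, 19 genes passed from 4-cell to 8-cell and 15 from 8-cell to morula; the other counts were as without it. The block ended both TNFRSF6B calls (adjusted p = 0.119 and 0.123 with limma) and added IL33 and IL10RB from 8-cell to morula. On arrays the small number of pools limits precision, and a value below 4 gives no level.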

Other observations

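Over the whole span from in vivo oocyte to blastocyst, 9 of the 46 tested genes of cytokine signalling rose and 23 fell, 69.6% in all beside 68.9% of all genes (36.2% up and 32.7% down). The split of all genes depends on the scaling: 2560 rose and 2309 fell as deposited, and 1762 and 2567 on spike-in centring. NFKBIA, the NF-kappa-B inhibitor, fell 41.8-fold (adjusted p = 1.37e-08), RIPK1, a kinase at the TNF receptor, 16.6-fold (adjusted p = 3.40e-08), and MYD88, the adaptor of the interleukin 1 and interleukin 18 receptors, 12.6-fold (adjusted p = 1.04e-07), all with limma. Higher in blastocysts were FADD (at least 21.7-fold, adjusted p = 6.92e-08), TNIP1 (at least 17.7-fold, adjusted p = 9.42e-08) and IRAK1, a kinase below MYD88 (6.80-fold, adjusted p = 3.13e-05), with limma. Before the 8-cell stage the few changes lay in PTPN2, a phosphatase of JAK kinases, which fell 4.50-fold from oocyte to zygote (adjusted p = 8.97e-04) and rose 2.89-fold to the 2-cell stage (adjusted p = 0.0280), in SOCS2, which fell 5.89-fold from zygote to 2-cell (adjusted p = 9.91e-04), and in TAB3, an adaptor below the TNF and interleukin 1 receptors, which rose in both steps (log2 1.93 and 2.30, adjusted p = 0.00506 and 0.00395, with limma).

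The 8-cell arrays carried the beta globin transcript HBB at 10.79, 7.07, 7.29 and 10.54 and the morula arrays at 4.45, 8.62 and 9.89, against 2.40 to 2.58 on all other arrays, while the alpha globin probe set HBA read 2.28 to 2.42 on the 8-cell arrays. CXCL13, a chemokine of B-cell follicles, read 5.08 on zygote array 1 and 4.22 on in vitro oocyte array 2, and below 4 elsewhere.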
